A study of Mus musculus with 6 samples.

Results

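The Wnt pathway was examined through 41 genes that encode its ligands, the proteins that release them, receptors, regulators of receptor turnover, intracellular transducers, TCF/LEF transcription factors, feedback genes and secreted inhibitors. They were taken by symbol from a fixed set of pathway members, by a rule that uses no measured value. The set itself was chosen with earlier results of these data known. All 41 were among the 24421 genes listed, and all 41 were among the 15906 genes with enough counts to be tested.

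The labels name the libraries as RNA-seq of oligodendrocyte progenitor cells (OPCs) from mice. OPCs divide and later mature into the oligodendrocytes that form myelin. A group of 3 libraries came from C57BL/6J mice of genotype Prrc2b f/f; Olig2-Cre (called knockout), and a group of 3 came from Prrc2b f/f mice without Cre (called control), so both groups carried the floxed allele and only the knockout carried Cre. The labels describe cortical cells of pups aged 4 days after birth, selected by GalC panning followed by O4 panning and grown in a proliferation medium with PDGF-AA, bFGF, CNTF, NT3 and forskolin, while the design text names brain tissue of that age. The comparison addresses what loss of Prrc2b does to gene expression. Olig2-Cre acts in cells that express Olig2, which are not only OPCs, and no library carried Cre alone, so an effect of the Cre allele cannot be told apart from that of the deletion. How many animals went into each library is not stated, and p-values therefore measure only the spread between these libraries.

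Wnt ligands are lipid-modified by Porcn and carried to the cell surface by Wls. They bind Frizzled receptors together with the co-receptors Lrp5 or Lrp6, which recruits Dishevelled proteins and stops the Axin, Apc and Gsk3b complex from marking beta-catenin for destruction. Beta-catenin then joins TCF/LEF factors at target genes, several of which, such as Axin2, Nkd1 and Notum, feed back to dampen the signal. In the oligodendrocyte lineage, high Wnt/beta-catenin signalling is known to hold back the step from progenitor to myelinating cell. OPCs are also a known source of Wnt7a and Wnt7b, ligands that act on brain endothelial cells through receptor complexes with Frizzled proteins such as Fzd4.

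Gene counts summed to between 26015604 and 28114968 read pairs per library, so 1 read pair corresponded to 0.0354 to 0.0381 CPM (normalised read count, scaled to a common library size by the TMM method). Prrc2b itself had 649, 824 and 757 CPM in the knockout libraries, against 932, 1111 and 925 CPM in the control libraries, with no overlap between the groups. A fit on genotype alone gave 0.751 times the control level (95% interval 0.602 to 0.938, adjusted p = 1.00, edgeR's quasi-likelihood test). The labels number the libraries 1 to 3 in both groups, and same-numbered libraries deviated from their group means together, so the same model was also fitted with the number as a block, which compares libraries within a number. With the block, Prrc2b was at 0.750 times the control level (95% interval 0.689 to 0.818, adjusted p = 0.00688, edgeR). The counts cover the whole gene, so transcripts that lack the floxed part are counted too.

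The list of 8 OPC markers was present in every library, with summed levels of 4759, 2272 and 3639 CPM in knockout libraries, against 4020, 2296 and 3527 CPM in control libraries. Ptprz1 alone had 2720, 1513 and 2490 CPM in knockout libraries and 2234, 1371 and 2317 CPM in control libraries. Olig2 was lower in the knockout in all 3 pairs (log2 fold change -0.50 ± 0.12, SE, adjusted p = 0.0533, edgeR with the block). Pdgfra and Ptprz1 were higher in all 3 pairs, and the other OPC markers had no common direction. A marker is said to be called where its adjusted p with the block was under 0.05, and 0 of the 8 OPC markers were called. Markers of other cells were present as well. The 17 endothelial markers summed to 235, 93.0 and 500 CPM in knockout libraries, against 140, 57.9 and 200 CPM in control libraries. Of these, 11 were called higher in the knockout and 0 lower. Mfsd2a, which was not called, made up much of these sums. It had 66.6, 28.6 and 71.1 CPM in knockout libraries and 58.8, 29.6 and 61.5 CPM in control libraries. The 7 choroid plexus and ependymal markers summed to 824 to 2757 CPM in knockout libraries and 355 to 1883 CPM in control libraries, with 4 called higher. Of the 8 pericyte and fibroblast markers 2 were called higher and 0 lower, with ratios of the sums, knockout over control, of 1.06, 1.30 and 1.51 in pairs 1, 2 and 3. The 9 astrocyte markers summed to 1815 to 3251 CPM in knockout libraries and 1548 to 2760 CPM in control libraries, also with 4 called higher. Of the 9 neuronal markers, 3 were called lower and 0 higher, with sums of 3207, 4520 and 3383 CPM in knockout libraries, against 3614, 4885 and 3856 CPM in control libraries. The neuronal sum was above the OPC sum in library 2 of both groups and in control library 3, and below it in the other libraries. That order rested on Ptprz1: without it, the neuronal sum was above the OPC sum in every library. The lists hold different genes, so these sums do not give shares of cells, and the Wnt levels below are those of whole libraries. Neither the 7 microglial nor the 6 myelin markers gave a call. Microglial sums were 9.17, 195 and 167 CPM in knockout libraries and 10.9, 197 and 147 CPM in control libraries, low in library 1 of both groups. The ratios of the myelin sums, knockout over control, were 2.40, 0.540 and 1.22 in pairs 1, 2 and 3, with no common direction. In these bulk libraries, fewer cells of a type and less RNA per cell cannot be told apart.

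Few of the 41 Wnt genes could be told apart between the genotypes. In edgeR's quasi-likelihood test on genotype alone, 0 of the 41 were called at an adjusted p under 0.05, in a comparison where 0% of the 15906 tested genes were called. An unadjusted p under 0.05 was reached by 0 of the 41 and by 274 of all tested genes. The fit with the block called 1 of the 41, the receptor gene Fzd6, which was higher in the knockout. It called 3.80% of all tested genes, 1.57% as higher and 2.23% as lower. The number of members called with the block depended on the setting: it was 6 without the filter on low counts (1 higher, 5 lower), 3 with limma-voom (1 higher, 2 lower), 2 with the DESeq2 test (1 higher, 1 lower) and 0 with a correction for GC content. At an unadjusted p under 0.05 with the block, 4 of the 41 members were higher and 8 were lower, against 1382 higher and 1511 lower of the 15906 tested genes. The median log2 fold change of the 41 with the block was -0.03, against 0.00 over all tested genes, and the median size of the change regardless of sign was 0.10, against 0.11. For 0 of the 41 did all knockout libraries lie on one side of all control libraries, which 6.34% of tested genes did. Within same-numbered pairs, 6 of the 41 (14.6%) were higher in the knockout in all 3 pairs, against 19.6% of tested genes. Another 13 of the 41 (31.7%) were lower in all 3 pairs, against 20.9% of tested genes.

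**Figure D1:**
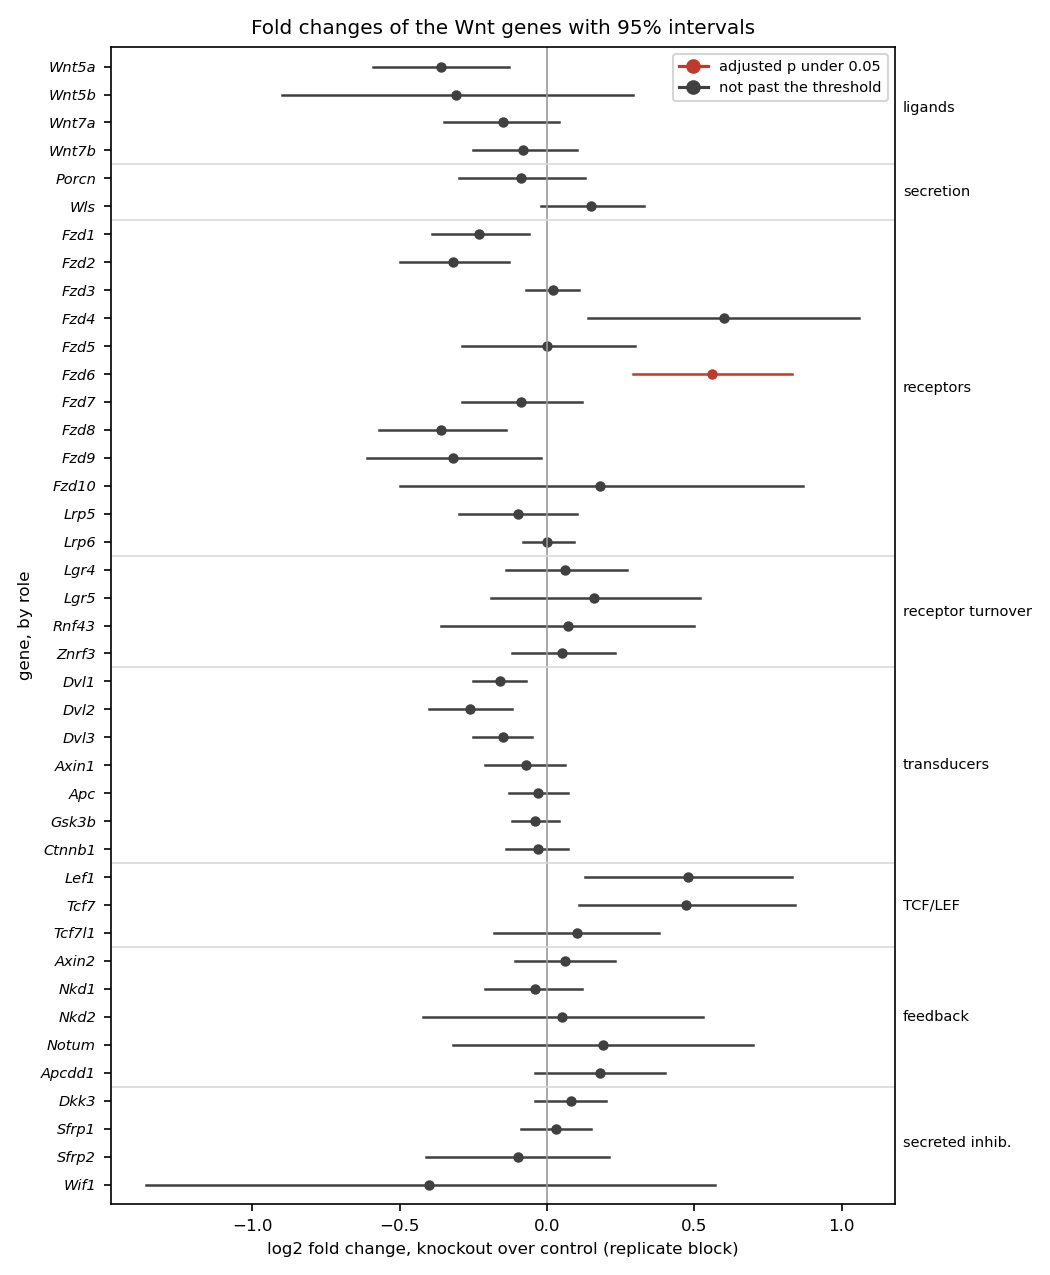
Log2 fold change, knockout over control, of the 41 Wnt genes by role from the fit with the replicate block; points are estimates, lines are 95% intervals, and red marks an adjusted p under 0.05. Fzd6, at 0.56, is the single red point, and estimates run from -0.40 for Wif1 to 0.60 for Fzd4.

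Among the genes, levels compared per kilobase of exon spanned a wide range. Ctnnb1, the gene of beta-catenin, was highest at 180 ± 6.08 CPM per kb in the knockout and 184 ± 10.8 CPM per kb in the control (mean ± SD, n = 3 each). The other transducers ranged from 10.2 for Dvl2 to 45.9 CPM per kb for Apc in the knockout, and from 12.3 for Dvl2 to 46.8 for Apc in the control. Wif1, which encodes a secreted protein that binds Wnt ligands, was lowest at 0.301 ± 0.231 CPM per kb in the knockout and 0.387 ± 0.274 in the control. The most abundant Frizzled gene per kilobase was Fzd3, at 27.2 ± 2.71 CPM per kb in the knockout and 27.0 ± 4.12 in the control, well above Fzd1, Fzd2 and the rest of the family. The TCF/LEF genes among the members were low, with Lef1 at 0.899 ± 0.340 CPM per kb in the knockout and 0.639 ± 0.225 in the control. Tcf7l2, the remaining member of that family and no member of the 41, was at 2.91 ± 1.05 CPM per kb in the knockout and 2.84 ± 0.823 in the control. Its level was close to that of Tcf7l1 (3.08 ± 1.11 CPM per kb in the knockout and 2.91 ± 1.16 in the control) and of Tcf7 (3.20 ± 1.06 CPM per kb in the knockout and 2.26 ± 0.457 in the control), whose values overlapped with it.

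**Figure D2:**
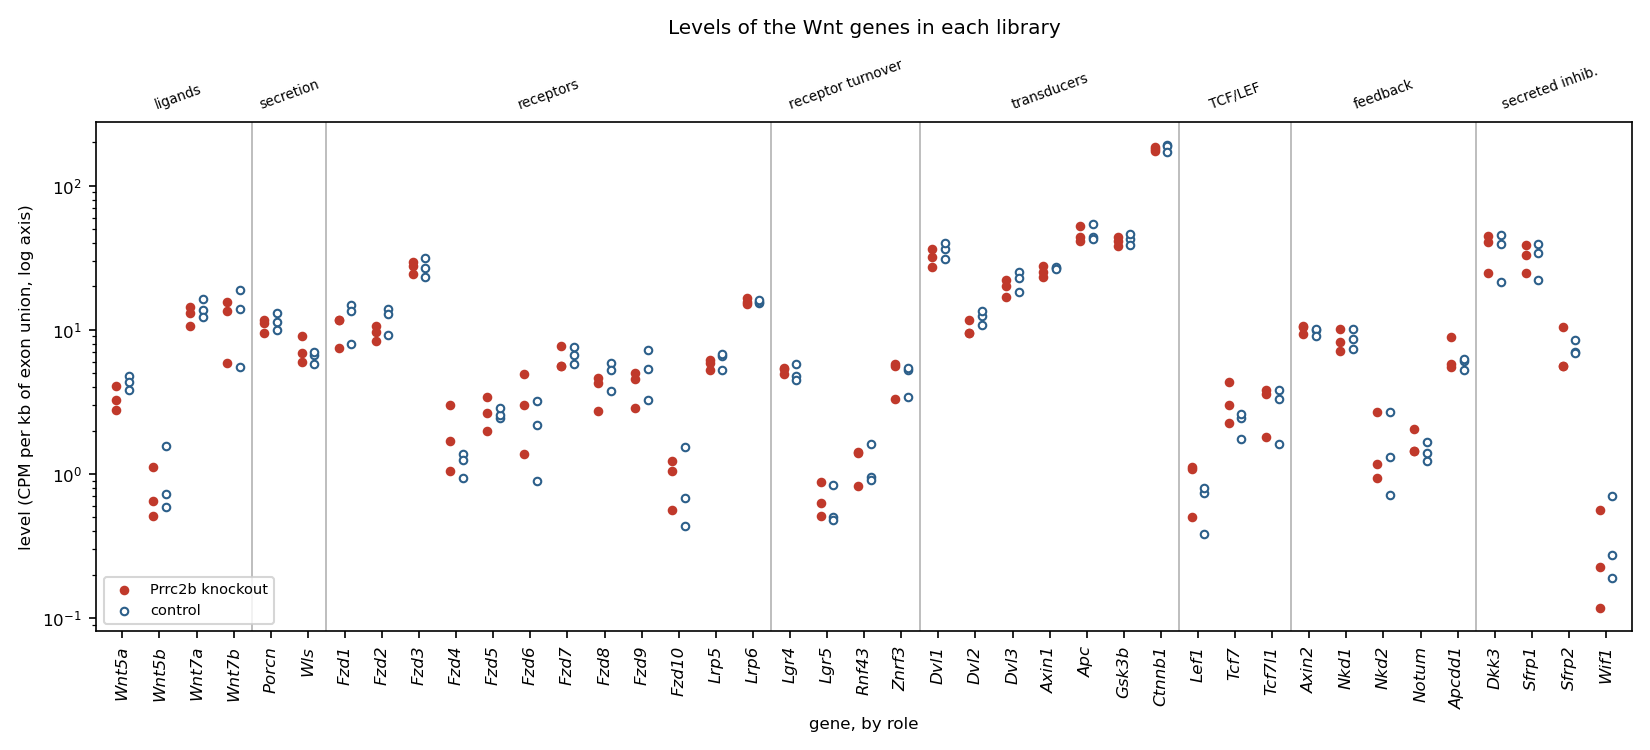
Level of each of the 41 Wnt genes in CPM per kilobase of exon union (log axis) in 3 knockout libraries (filled points, left) and 3 control libraries (open points, right), by role. The groups overlap for every gene, Ctnnb1 is highest and Wif1 lowest.

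Of the ligands, Wnt7a and Wnt7b were the most abundant per kilobase, with Wnt7a at 12.7 ± 1.91 CPM per kb in the knockout and 14.2 ± 2.14 in the control, and Wnt7b at 11.7 ± 5.07 in the knockout and 12.7 ± 6.74 in the control. The 4 ligand genes all had negative fold changes, with a median of -0.23 (log2, with the block), and 0 of the 4 passed the test. Wnt5a, a ligand known mainly for signalling that does not use beta-catenin, had 25.6, 32.1 and 21.9 CPM in the knockout libraries, against 37.4, 34.1 and 29.9 CPM in the control libraries. The groups overlapped, since knockout library 2 exceeded control library 3, but within each numbered pair the knockout value was the lower one. The log2 fold change of Wnt5a was -0.36 ± 0.10 (SE) with the block, which did not pass the test (adjusted p = 0.0946, edgeR). It passed when both libraries numbered 2, the pair with the smallest difference (-0.09), were left out (-0.50, adjusted p = 0.0374, edgeR). Over the 3 removals of a pair this was the only call, with estimates from -0.50 to -0.26 and adjusted p up to 0.344 (edgeR).

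Wnt7a had 41.5, 45.8 and 33.8 CPM in knockout libraries and 52.2, 43.8 and 38.8 CPM in control libraries. It was lower in pairs 1 and 3 and higher in pair 2, and its log2 fold change of -0.15 ± 0.09 (SE) did not pass the test (adjusted p = 0.398, edgeR with the block). Wnt7b had 66.2, 29.0 and 76.0 CPM in knockout libraries and 68.1, 26.9 and 92.1 CPM in control libraries. Its level followed the library number far more than the genotype: library 2 was lowest in both groups, at 0.407 times the mean of the other two in the knockout and 0.336 times in the control. The log2 fold change of Wnt7b was -0.08, with a 95% interval of -0.25 to 0.10. Wnt5b was scarce, at 0.755 ± 0.315 CPM per kb in the knockout and 0.962 ± 0.533 in the control. On the release side, Wls had 52.9, 60.7 and 79.1 CPM in knockout libraries, against 51.0, 58.9 and 61.5 CPM in control libraries. The first 2 pairs were nearly level and pair 3 was higher in the knockout, with a log2 fold change of 0.15 ± 0.08 (SE) that did not pass the test (adjusted p = 0.324, edgeR with the block). Porcn, the acyltransferase that lipidates Wnts, was at 10.8 ± 1.13 CPM per kb in the knockout and 11.4 ± 1.57 in the control, with overlapping groups.

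Of the 10 Frizzled genes and 2 co-receptors, 1 was called with the block. Fzd6 (chr15:39006034-39038188, plus strand, GRCm38) had 14.4, 6.58 and 23.9 CPM in the knockout libraries, against 10.6, 4.31 and 15.4 CPM in the control libraries. The groups overlapped widely, with library 2 lowest and library 3 highest in both, yet every knockout library exceeded the control library of its number. On genotype alone the log2 fold change was 0.57 ± 0.59 (SE; 95% interval -0.85 to 1.98, adjusted p = 1.00, edgeR). With the block it was 0.56 ± 0.12 (SE; 95% interval 0.29 to 0.83, adjusted p = 0.0354, edgeR), or 1.48-fold, with pair values of 0.44, 0.60 and 0.63. The call held in 6 of 7 blocked settings, and was lost with a correction for GC content (0.54, adjusted p = 0.0540, edgeR). It was also lost when any one pair was left out (adjusted p = 0.0572 to 0.253, edgeR), while the estimates stayed between 0.52 and 0.63. Without the block, where single libraries were left out, the estimate ran from 0.05 without knockout library 3 to 1.01 without control library 3. A predicted gene on the opposite strand shares 152 bases of exon with Fzd6.

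Fzd4, a receptor for Wnt ligands and norrin in brain and retinal vessels, had 11.4, 7.08 and 20.3 CPM in knockout libraries, against 9.23, 6.29 and 8.45 CPM in control libraries. The pairs were all higher in the knockout, but knockout library 3 stood apart with a pair value of 1.26 on the log2 scale, against 0.30 and 0.17 for pairs 1 and 2. The estimate of 0.60 ± 0.20 (SE, log2) did not pass the test (adjusted p = 0.156, edgeR with the block), and was 0.24 without the libraries numbered 3. Knockout library 3 was also where the endothelial marker sum was highest: the ratios of that sum, knockout over control, were 1.67, 1.61 and 2.50 in pairs 1, 2 and 3. The nearly level Mfsd2a held these ratios down, and the median log2 fold change of the 17 markers was 1.26 with the block. None of the 17 endothelial markers was at 0 in any library. The sums of astrocyte, choroid plexus and ependymal, and pericyte and fibroblast markers were also higher in the knockout in every pair. The part of RNA from any of these cells in the values of Fzd4 and Fzd6 was not tested.

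Opposite to these, Fzd1, Fzd2, Fzd8 and Fzd9 were lower in the knockout in all 3 pairs. Like Fzd4, they are described singly because, after their values were seen, they had one direction in every pair and an unadjusted p under 0.05 with the block. None passed the adjusted threshold in that fit, but Fzd2 did without the filter on low counts (adjusted p = 0.0307, edgeR) and with limma-voom (adjusted p = 0.0433), and Fzd8 did without the filter (adjusted p = 0.0406, edgeR). Fzd2 had 39.2, 35.4 and 30.5 CPM in knockout libraries and 51.5, 47.5 and 33.6 CPM in control libraries. Fzd8 had 25.7, 16.4 and 27.8 CPM in knockout libraries and 35.4, 22.3 and 31.3 CPM in control libraries. For both genes the differences of pairs 1 and 2 were larger than that of pair 3, and the groups overlapped. The log2 fold changes with the block were -0.32 ± 0.08 for Fzd2 (adjusted p = 0.0688) and -0.36 ± 0.10 for Fzd8 (adjusted p = 0.0765; SE, edgeR). Fzd1 had a smaller estimate of -0.23 ± 0.07 (adjusted p = 0.134, edgeR) and Fzd9 one of -0.32 ± 0.13 (adjusted p = 0.239, edgeR). With the GC correction, the estimate for Fzd9, a gene with 62.2% GC in its transcript, was -0.18.

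The remaining Frizzled genes and the co-receptors had smaller estimates. Fzd3 had a log2 fold change of 0.02 (95% interval -0.07 to 0.11, with the block). Lrp6, the co-receptor with the steadiest level, had 213, 205 and 226 CPM in knockout libraries and 209, 214 and 220 CPM in control libraries, with a log2 fold change of 0.00 (95% interval -0.08 to 0.09). Lrp5, at 5.79 ± 0.460 CPM per kb in the knockout and 6.24 ± 0.852 in the control, lay below Lrp6, at 15.7 ± 0.780 CPM per kb in the knockout and 15.7 ± 0.434 in the control. Fzd5, Fzd7 and Fzd10 had no common direction over the pairs, and Fzd10 rested on only 37 to 142 read pairs per library.

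**Figure D3:**
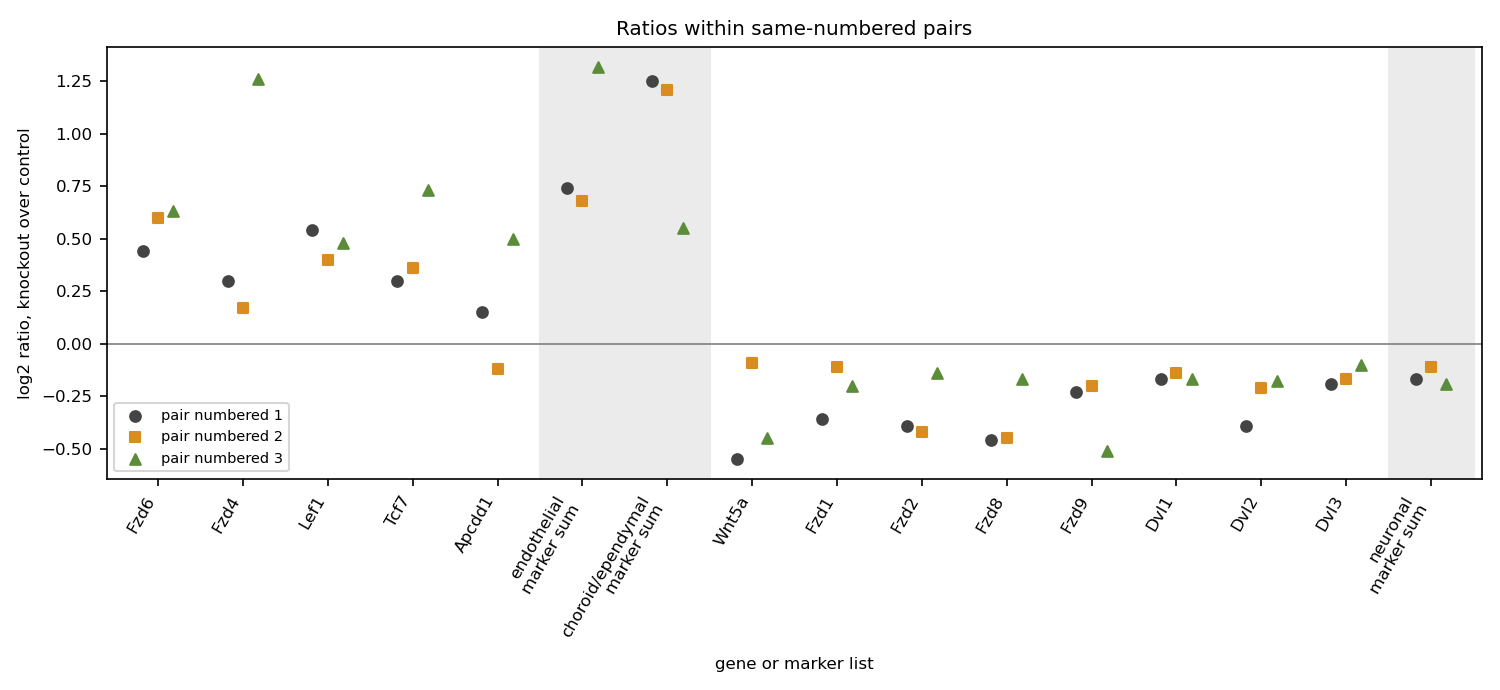
Log2 ratio, knockout over control, within each same-numbered pair (circle pair 1, square pair 2, triangle pair 3) for 13 Wnt genes and, on grey, the summed marker lists of 3 other cell types. Fzd6, Fzd4, Lef1 and Tcf7 lie above 0 in every pair, as do the endothelial and choroid plexus sums; Wnt5a, the 4 lower Frizzled genes, Dvl1, Dvl2, Dvl3 and the neuronal sum lie below 0, and Apcdd1 lies on both sides.

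The genes of receptor turnover gave no call. Lgr4 and Lgr5 encode receptors for R-spondins, which keep Frizzled proteins on the surface, and Rnf43 and Znrf3 encode the ubiquitin ligases that remove them. Lgr5, the member of this group with the smallest p, had 9.10, 6.40 and 5.29 CPM in knockout libraries and 8.56, 5.19 and 4.92 CPM in control libraries. Each knockout value was slightly above its pair, with a log2 fold change of 0.16 ± 0.16 (SE; adjusted p = 0.650, edgeR with the block). The level of Znrf3, at 4.93 ± 1.39 CPM per kb in the knockout and 4.70 ± 1.09 in the control, was above that of Rnf43, at 1.21 ± 0.336 CPM per kb in the knockout and 1.16 ± 0.393 in the control.

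The 7 transducers all had negative estimates with the block, from -0.26 to -0.03 on the log2 scale, and from -0.23 to 0.00 when scaled by library totals. In 5 of the 7 the knockout was lower in every pair, and 0 of the 7 passed the test. Of these, Apc and Gsk3b were nearly level, with pair values of -0.05 to 0.00 for Apc and -0.08 to 0.00 for Gsk3b. The 3 Dishevelled genes, whose proteins relay the signal from Frizzled to the destruction complex, had the most negative estimates of the group. Dvl2 had 60.3, 73.5 and 59.7 CPM in knockout libraries, against 79.1, 85.2 and 67.7 CPM in control libraries. Only knockout library 2 reached into the control range. Its log2 fold change was -0.26 ± 0.06 (SE; adjusted p = 0.0531, edgeR with the block), and it was called in 3 of 7 blocked settings, where adjusted p ran from 0.0233 to 0.0868. Dvl2 shares 1151 bases of exon with Acadvl on the other strand, and whether strand was used in counting is not stated in the sources used here.

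Dvl1 had 160, 181 and 137 CPM in knockout libraries and 180, 200 and 154 CPM in control libraries, with pair values of -0.17, -0.14 and -0.17 on the log2 scale. Dvl3 had 142, 130 and 109 CPM in knockout libraries and 163, 146 and 117 CPM in control libraries, with pair values of -0.19, -0.17 and -0.10. In both genes the pairs differed by similar small amounts while the groups overlapped. Both were named after their values were seen, and neither passed the test (adjusted p = 0.0540 for Dvl1 and 0.0955 for Dvl3, edgeR with the block). Dvl1 passed it without the filter on low counts (adjusted p = 0.0311, edgeR), and was at -0.09 with the GC correction (adjusted p = 0.260, edgeR). Neuronal marker sums in the same pairs had log2 ratios of -0.17, -0.11 and -0.19, and the part of neuronal RNA in these values was not tested.

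Downstream of Dishevelled the values were nearly level. Ctnnb1 had 933, 964 and 901 CPM in knockout libraries, against 992, 984 and 891 CPM in control libraries, with a log2 fold change of -0.03 (95% interval -0.14 to 0.07, with the block). Gsk3b, the kinase of the destruction complex, had a log2 fold change of -0.04 (95% interval -0.12 to 0.04), and the scaffold gene Apc one of -0.03 (95% interval -0.13 to 0.07). Axin1, the other scaffold of that complex, had 107, 89.7 and 97.1 CPM in knockout libraries and 102, 104 and 102 CPM in control libraries, with a direction that differed between pairs.

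The 3 TCF/LEF genes among the members had positive estimates with a median of 0.47 on the log2 scale, and 0 of the 3 passed the test. Tcf7l2, the family gene outside the members, was at 0.01 with the block. Tcf7l1 had the smallest, at 0.10 (95% interval -0.18 to 0.38, with the block), and was lower in the knockout in pair 3. Lef1 had 9.46, 4.45 and 9.78 CPM in knockout libraries, against 6.50, 3.36 and 7.00 CPM in control libraries. Library 2 was lowest in both groups and the groups overlapped, but each knockout library exceeded its pair by a similar ratio, with log2 values of 0.54, 0.40 and 0.48. The estimate was 0.48 ± 0.15 (SE, log2; 95% interval 0.13 to 0.83; adjusted p = 0.130, edgeR with the block), and adjusted p ran from 0.108 to 0.344 over the blocked settings. A predicted gene on the opposite strand shares 1208 bases of exon with Lef1. Tcf7, named after its values were seen, had 7.90, 5.91 and 11.4 CPM in knockout libraries and 6.42, 4.58 and 6.83 CPM in control libraries. Every pair was higher in the knockout, most so in pair 3, and its log2 fold change was 0.47 ± 0.16 (SE; adjusted p = 0.154, edgeR with the block). Lef1 is known to be active in brain endothelial cells, whose summed markers were higher in the knockout in the same pairs. The astrocyte, choroid plexus and ependymal, and pericyte and fibroblast sums were higher in all 3 pairs as well. The part of RNA from any of these cells in the Lef1 values was not tested.

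The feedback genes, commonly read as a record of beta-catenin activity, showed no call in either direction. Axin2, which encodes a scaffold that rebuilds the destruction complex, had 57.7, 51.2 and 58.9 CPM in knockout libraries, against 55.3, 55.7 and 50.0 CPM in control libraries. Pairs 1 and 3 were higher in the knockout and pair 2 lower, and the log2 fold change was 0.06 ± 0.08 (SE; adjusted p = 0.751, edgeR with the block), with a 95% interval of 0.924-fold to 1.17-fold. Apcdd1, which encodes a membrane inhibitor of Wnt signalling, had 75.1, 71.5 and 115 CPM in knockout libraries, against 67.5, 77.8 and 81.4 CPM in control libraries. Its estimate of 0.18 ± 0.10 (SE, log2; adjusted p = 0.388, edgeR with the block) rested on pair 3, and was 0.02 with both libraries numbered 3 left out. The level of Nkd1, at 8.47 ± 1.47 CPM per kb in the knockout and 8.72 ± 1.39 in the control, was above that of Nkd2, at 1.59 ± 0.943 in the knockout and 1.57 ± 1.02 in the control; both encode proteins that bind Dishevelled. Notum, an enzyme that removes the lipid from Wnt ligands, was at 1.64 ± 0.344 CPM per kb in the knockout and 1.43 ± 0.220 in the control.

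TCF/LEF factors bind DNA through a short core, searched here as CTTTGA on either strand (TCAAAG read the other way) in RefSeq promoter windows of 300 bases, from 250 before to 50 after a transcript start (GRCm38.p6). Windows were found for 24 of the 41 genes, 32 in all, and 4 of the 32 (12.5%) held the core, in Wnt5b, Fzd1, Gsk3b and Lef1. Of all 32851 windows in the table, 16.0% held it. The Lef1 window is shown because it held 2 matches, in capitals, starting at bases 71 and 131 of the window, and the Axin2 window because Axin2 is the usual readout gene of the pathway; it held 0 matches. The Lef1 window is chr3:131156044-131156343 and the Axin2 window chr11:108920099-108920398, both on the plus strand, written 5′ to 3′.
Lef1: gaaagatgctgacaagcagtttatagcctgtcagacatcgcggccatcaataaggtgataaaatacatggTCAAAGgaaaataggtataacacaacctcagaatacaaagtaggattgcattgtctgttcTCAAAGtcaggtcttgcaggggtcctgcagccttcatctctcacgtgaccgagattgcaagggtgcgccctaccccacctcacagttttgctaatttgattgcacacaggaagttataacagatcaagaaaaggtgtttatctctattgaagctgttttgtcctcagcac
Axin2: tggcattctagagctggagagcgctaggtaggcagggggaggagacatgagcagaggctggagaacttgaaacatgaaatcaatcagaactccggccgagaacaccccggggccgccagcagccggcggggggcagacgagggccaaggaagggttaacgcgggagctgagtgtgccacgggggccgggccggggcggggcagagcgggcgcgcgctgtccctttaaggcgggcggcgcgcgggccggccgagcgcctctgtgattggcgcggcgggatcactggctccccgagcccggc
A match of this length is a description of the letters and not a binding site, and other windows of Lef1, at its other starts, held 0 matches. The Lef1 window shown belongs to a start inside the gene, whose annotated first base is chr3:131110471.

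The secreted inhibitors gave no call either. Dkk3, a member of the Dickkopf family, had 137, 82.9 and 151 CPM in knockout libraries and 132, 72.1 and 152 CPM in control libraries. Its libraries 2 were the lowest in both groups, and the log2 fold change of 0.08 ± 0.05 (SE) did not pass the test (adjusted p = 0.475, edgeR with the block). Sfrp1, a secreted decoy with a Frizzled-type domain, had 144, 109 and 169 CPM in knockout libraries and 149, 96.2 and 173 CPM in control libraries. Sfrp2, of the same family, was highest in library 2 of both groups, where the other secreted inhibitors were lowest. Wif1 had 0.546, 0.285 and 1.36 CPM in knockout libraries and 0.664, 0.458 and 1.70 CPM in control libraries, the lowest of them resting on 8 read pairs. At that depth its log2 fold change of -0.40 had a 95% interval of -1.36 to 0.57, and no difference was detectable.

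Library 2 was the lowest of its group in both groups for 16 of the 41 genes, against 24.0% of tested genes, and library 3 was the highest in both groups for 17, against 25.2%. Library 1 was the lowest in both groups for 1 of the 41, against 20.7% of tested genes. The highest library exceeded the lowest 5.96-fold for Wif1, 5.54-fold for Fzd6, 3.43-fold for Wnt7b and 2.91-fold for Lef1, but 1.10-fold for Lrp6 and 1.11-fold for Ctnnb1. What the number marks is not stated. Over the libraries, OPC, astrocyte and endothelial marker sums were lowest in library 2 of both groups, and the neuronal sum was highest there. The part of cell composition in the low values of library 2 was not tested.

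**Figure D4:**
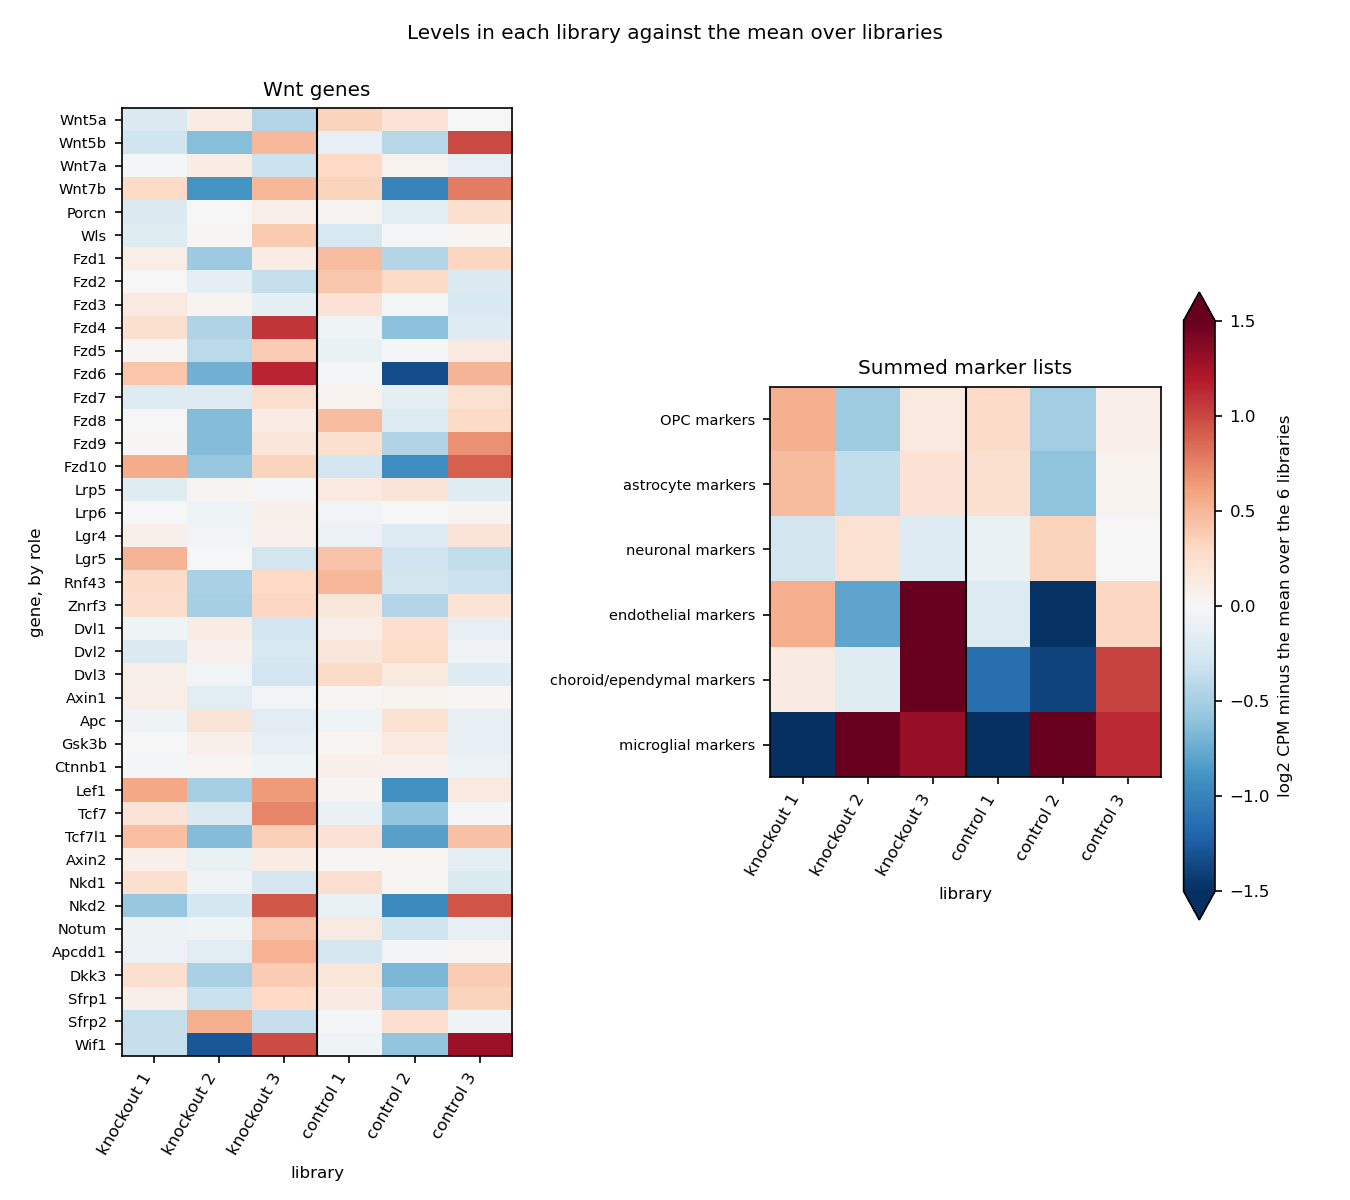
Log2 CPM of each of the 41 Wnt genes (left) and of 6 summed marker lists (right) in each library, minus the mean over the 6 libraries; colours saturate at 1.5 in either direction. Wnt7b, Fzd6, Lef1, Tcf7l1, Dkk3 and Wif1 are low in library 2 of both groups, as are the OPC, astrocyte and endothelial sums.

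The 13 members lower in every pair had a median transcript GC content of 55.2%, and the 6 higher in every pair one of 46.6%. The 41 together were at 52.9% and all tested genes at 49.8%. Over all tested genes, those lower in every pair were at 52.6% and those higher in every pair at 49.1%. With the GC correction, 0 of the 41 members were called and 11 had an unadjusted p under 0.05, against 385 called and 2715 with such a p among all tested genes.

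Of the other genes of the pathway, a list of 73, 60 were tested; they had a median size of change of 0.12 on the log2 scale with the block. On genotype alone 0 of the 60 were called, also at an unadjusted p under 0.05. With the block 5 of the 60 were called lower in the knockout and 0 higher, where 2.23% of all tested genes were called lower and 1.57% higher. The knockout was higher in all 3 pairs for 9 of the 60 (15.0%, against 19.6% of tested genes) and lower for 17 (28.3%, against 20.9%), with a median log2 fold change of -0.05. Apc2, a relative of Apc found mainly in the nervous system, had 313, 454 and 503 CPM in knockout libraries, against 443, 524 and 620 CPM in control libraries. The groups overlapped and every pair was lower in the knockout, with a log2 fold change of -0.34 ± 0.06 (SE; adjusted p = 0.0148, edgeR with the block). The other 4 changed by less: -0.22 for Celsr3, an atypical cadherin of planar cell polarity (adjusted p = 0.0277), -0.21 for Bcl9l, a beta-catenin coactivator (adjusted p = 0.0279), -0.17 for the TCF corepressor gene Tle1 (adjusted p = 0.0328) and -0.19 for the kinase gene Csnk1e (adjusted p = 0.0348, edgeR with the block). The GC correction ended the calls of Apc2 (-0.20, adjusted p = 0.0854), Bcl9l (-0.07, adjusted p = 0.438) and Csnk1e (adjusted p = 0.0649, edgeR), while Celsr3 and Tle1 remained. With library totals and the block, Celsr3 (adjusted p = 0.0526), Tle1 (0.0637), Bcl9l (0.0533) and Csnk1e (0.0689) lost their calls and Apc2 kept its own (0.0233, edgeR). Tle1 also lost its call with the DESeq2 test (adjusted p = 0.0550), so none of the 5 was called in all 7 blocked settings. Without the libraries numbered 1 the block called 0 of the 60, and without those numbered 3 it called Apc2 alone. The neuronal marker sum was lower in the knockout in the same pairs, and its part in these calls was not tested. Tcf7l2, the TCF gene with known activity in maturing oligodendrocytes, had 28.5, 15.2 and 32.9 CPM in knockout libraries and 24.5, 17.9 and 32.3 CPM in control libraries. Its log2 fold change was 0.01 (95% interval -0.23 to 0.24, with the block). Its sign was negative with limma-voom without the block and with the block and GC correction, at -0.01 each.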

How the data were processed

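RNA-seq counts were analysed in 6 libraries, 3 per genotype, grouped by the labels' genotypes. The authors deposited raw counts, as whole numbers of read pairs for each gene symbol. Per the labels' protocols, libraries were made from poly(A) RNA with strand marking and read from both ends. The submitters' processing notes list the genome build mm10 and the tools DESeq2 1.26.0, HISAT2 2.2.1 and HTSeq 0.12.4; what each did, the gene annotation and the strand option used were not given in the sources used here, so values of genes that overlap on opposite strands are uncertain. The 5 summary entries of each table entered neither library sizes nor tests; as mean shares of read pairs in knockout and control libraries they were 20.8% and 19.7% outside genes, 1.45% and 1.46% ambiguous, 3.83% and 3.11% of low alignment quality, 1.25% and 1.03% not aligned, and 3.41% and 3.46% with several alignments.

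Of 24421 genes listed, 15906 passed edgeR's expression filter. Counts were scaled by TMM and tested on genotype with edgeR 4.0.16 in R 4.3.3 (quasi-likelihood, two-sided), adjusted by Benjamini-Hochberg over all tested genes and called at 0.05. Fold changes are knockout over control. The labels give both groups the numbers 1 to 3 without saying what they mark. Libraries that share a number had correlated deviations from their group means (0.712, 0.682 and 0.654 for numbers 1, 2 and 3), which was taken as pairing, and the fit with the number as a block is given beside the other. Pair values used a prior count of 2. edgeR estimated a common coefficient of variation of 0.315 without and 0.104 with the block, at 4 and 2 residual degrees of freedom. Libraries of a group differed far beyond counting noise (chi-square per degree of freedom 57.8 to 87.8), so none was taken for a copy. Exon lengths, GC content, coordinates and overlaps came from GENCODE M21, and promoters from RefSeq. Besides Fzd6, Dvl2 and Lef1, other members shared exon bases with genes on the opposite strand. They were Fzd5 (1233), Notum (918), Ctnnb1 (759), Wnt5a (358), Sfrp2 (347), Wnt7b (324), Axin2 (209), Tcf7l1 (179) and Dvl1 (36). Of the other pathway genes called with the block, Bcl9l (772), Csnk1e (267), Tle1 (247) and Apc2 (10) did so. Intervals are 95%. The scripts were tested on simulated data.

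The members, gene lists and tests were chosen with earlier results of these data known. Fold changes are given for members called in either fit, for the smallest blocked p of each role group, and always for Wnt7a, Wnt7b, Axin2, Lef1 and Wif1; for other pathway genes, for those called and Tcf7l2; and for genes marked in the text as named after their values were seen. For Fzd3, Lrp6, Ctnnb1, Gsk3b, Apc and Tcf7l1, also named after their values were seen, only estimates with intervals are given. Alternatives were DESeq2 size factors, library totals, no filter, DESeq2 1.42.0, limma-voom (limma 3.58.1), a GC correction in 20 bins, and leaving out libraries or pairs.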

Additional observations from a re-analysis of the deposited data

Results flagged for a closer look

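Read pairs that were assigned to no gene were not used in the comparison, and 3 kinds of them differed between the groups. Pairs outside genes made up 20.8% of read pairs on average in knockout libraries, against 19.7% in control libraries. Pairs of low alignment quality made up 3.83% in knockout libraries, against 3.11% in control libraries, and unaligned pairs 1.25%, against 1.03%. For each of the 3 kinds, every knockout library was above every control library. These shares and the genotype cannot be told apart in this design, and their part in the Wnt values was not tested.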

How the results depend on the processing

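Counts of calls without the block were 0 for the 41 Wnt genes, for the 60 other pathway genes and for all tested genes, also with DESeq2 size factors, library totals, no filter and limma-voom, and with any 1 library left out (0 to 0); the DESeq2 test called 20 of all genes. At an unadjusted p under 0.05, edgeR had 274 of all genes, 0 of the 41 and 0 of the 60. With the replicate block, calls among all genes, the 41 and the 60 were 604, 1 and 5. They were 573, 1 and 5 with DESeq2 size factors, 502, 1 and 1 with library totals, 1034, 6 and 6 without the filter, 671, 2 and 4 with the DESeq2 test, 712, 3 and 5 with limma-voom, and 385, 0 and 2 with the GC correction. The cause of these differences was not tested. Of calls among all genes with the block, 41.4% were higher in the knockout, against 54.0% with library totals and 51.7% with the GC correction. The 6 members called without the filter were Fzd6, higher, and Wnt5a, Fzd2, Fzd8, Dvl1 and Dvl2, lower. With the block and a pair left out, calls were 174 to 521 among all genes, 0 to 1 among the 41 and 0 to 5 among the 60; the member called was Wnt5a, without the pair numbered 2.

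Of the fold changes given, 489 values kept their direction and side of the threshold, 57 kept the direction and passed it, and 21 turned in sign. Tcf7l2 was at -0.01 with limma-voom without the block, and with the block and GC correction. Leaving out libraries or pairs brought the log2 fold change of Tcf7l2 to between -0.19 and 0.30, of Dkk3 to between -0.20 and 0.28, of Wnt7b to between -0.49 and 0.27, of Wif1 to between -1.18 and 0.38, of Lgr5 to between -0.09 and 0.46, of Wls to between -0.01 and 0.29, of Apcdd1 to between -0.05 and 0.33, of Tle1 to between -0.40 and 0.04, of Celsr3 to between -0.53 and 0.06 and of Axin2 to between -0.03 and 0.15. Wif1, Wnt5b, Fzd10 and Notum are limited by depth.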
